A study of Mus musculus with 12 samples.

Results

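The genes described here are the WNT ligands, their Frizzled (Fzd) receptors, the R-spondins (Rspo), the secreted Frizzled-related proteins (Sfrp) and the Dickkopf proteins (Dkk) of the mouse colon. They were chosen by symbol from the colon count tables, which listed 37 of them among 30263 genes. A mean of 10 or more raw counts over the 6 colon libraries was taken as expressed, and 33 members met it. Of these, 32 also passed the filter of the gene test and were tested among 17195 genes. The least abundant expressed member was Rspo2 with a mean of 13.5 counts, and the nearest below the limit was Wnt7a with 6.83.

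The study compared C57BL/6 mice labelled wild type (WT) with mice labelled as knockout (KO) for S1PR4, a receptor for the lipid sphingosine 1-phosphate. All colon mice, WT and KO alike, received azoxymethane (AOM, a carcinogen) at 10 mg/kg on day 0. They also drank 0.5% dextran sulfate sodium (DSS, an irritant of the gut epithelium) on days 1 to 6, 21 to 27 and 47 to 52. Total colons were taken at day 84, with 3 libraries in each group. The labels give neither age nor sex, do not name the KO allele and leave unstated if replicates came from separate animals, so p-values measure only the spread between these libraries. CD8+ T cells sorted from PyMT mammary tumors form the other groups of the series and enter only where their tables list a member.

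WNT ligands are lipid-modified secreted proteins that bind a Frizzled receptor together with the co-receptors LRP5 or LRP6. In the canonical branch this stabilises beta-catenin, which enters the nucleus and acts with TCF and LEF factors, while ligands such as Wnt5a can also act without beta-catenin. R-spondins, made mainly by stromal cells of the gut, raise the signal by keeping Frizzled receptors on the cell surface. Secreted Frizzled-related proteins bind WNT ligands outside the cell, and Dickkopf proteins bind the LRP co-receptors. The pathway maintains stem cells at the base of colonic crypts and is constitutively active in most colorectal tumors, where several of its own inhibitors are made as feedback targets.

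No member passed the test between KO and WT. In 2 KO libraries, replicates 2 and 3, the ligands Wnt6, Wnt10a and Wnt3, the receptor Fzd10 and the modulator Dkk2 stood above every WT library. In the remaining KO library, replicate 1, each of these 5 genes lay within the WT range. The R-spondins Rspo2 and Rspo3 and the inhibitors Sfrp1, Sfrp2 and Sfrp5 had the opposite layout, with KO replicates 2 and 3 the lowest of the 6 libraries and KO replicate 1 the highest or second highest. Rspo2 reached the count limit only through its other libraries, since KO replicates 2 and 3 held 1 count each. For the Frizzled receptors other than Fzd9 and Fzd10, the highest library was at most 2.16 times the lowest.

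Counts per colon library ran from 7304082 to 8652561 in total. S1pr4 itself had 25 to 61 counts in WT and 118 to 162 in KO, so its level goes against the labels. A count per gene cannot tell a deleted exon from an intact one, and WT and KO below mean the libraries so labelled. Xist, which is made in female cells, was high in WT replicate 1 and KO replicates 2 and 3 (517 to 606 CPM, counts scaled to a common library total), and in the other 3 libraries Ddx3y of the Y chromosome read 63.1 to 80.2 CPM. Sex and group are therefore partly mixed, and a difference within either set rests on a single library on 1 side. Markers of colonic epithelium were present in each library, and all 12 summed to 2051 to 2452 CPM. Markers of smooth muscle (12 of 12 listed) summed to 2190 to 3233 CPM in WT and to 1347 to 2709 CPM in KO, and those of enteric neurons and glia (14 of 14) to 302 to 428 and 165 to 428 CPM. Markers of mesothelium and fat (10 of 10) summed to 188, 184 and 178 CPM in WT and to 226, 224 and 231 CPM in KO, without overlap. Of that list 8 genes were tested, and all had the higher mean in KO (median log2 difference 0.96, 2 with an unadjusted p under 0.05, 0 called by edgeR), and the part of such tissue in the values of the members was not tested. Squamous epithelium markers (14 of 14) summed to 980 CPM in WT replicate 1 and to 28.6 to 106 CPM in the other 5 libraries. No list had a marker at 0 in all 6 libraries. Of the tested markers, 0 of 12 for smooth muscle and 1 of 14 for neurons and glia were higher in KO. Those for fibroblasts were 2 of 16 and for endothelium 1 of 8, where 49.0% of all genes were higher. For epithelium 8 of 12 were higher, for immune cells 9 of 13 and for squamous epithelium 0 of 8. No marker was called by edgeR.

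The promoters of 3 members are shown. Wnt6 and Dkk2 were taken for the high values in 2 KO libraries. Fzd5 was taken as the only member whose groups did not overlap (3.13% of tested members, against 9.58% of all genes). Each promoter is the 250 bases before the RefSeq start on GRCm38.p6, written 5′ to 3′ on the gene's strand. Capitals mark GGGCGG or its reverse complement CCGCCC, the GC box bound by SP1-like factors. The windows are chr1:74771642-74771891 (plus strand) for Wnt6, chr3:132085042-132085291 (plus strand) for Dkk2 and chr1:64737751-64738000 (minus strand) for Fzd5.
Wnt6: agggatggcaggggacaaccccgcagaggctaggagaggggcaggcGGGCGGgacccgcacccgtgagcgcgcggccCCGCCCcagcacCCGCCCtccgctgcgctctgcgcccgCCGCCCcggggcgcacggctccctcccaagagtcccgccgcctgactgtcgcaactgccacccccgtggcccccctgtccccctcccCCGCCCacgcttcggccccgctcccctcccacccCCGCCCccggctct
Dkk2: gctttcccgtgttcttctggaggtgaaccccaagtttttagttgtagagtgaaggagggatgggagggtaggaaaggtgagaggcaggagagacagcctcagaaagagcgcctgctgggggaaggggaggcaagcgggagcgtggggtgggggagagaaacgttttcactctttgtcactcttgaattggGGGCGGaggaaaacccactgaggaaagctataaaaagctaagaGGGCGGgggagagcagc
Fzd5: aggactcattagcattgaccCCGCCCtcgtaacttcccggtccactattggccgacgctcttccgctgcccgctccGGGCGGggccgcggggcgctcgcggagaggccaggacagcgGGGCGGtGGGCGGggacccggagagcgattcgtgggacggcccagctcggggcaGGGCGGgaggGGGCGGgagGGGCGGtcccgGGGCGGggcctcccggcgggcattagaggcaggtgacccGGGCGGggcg
The Wnt6 window held 6 GC boxes, the Dkk2 window 2 and the Fzd5 window 9. Of the 24 windows found for 21 of the expressed members, 16 (66.7%) held a GC box, against 32.7% of all 32851 windows in the table, and their median GC content was 66.8% against 52.4%. The TCF and LEF motif, searched on both strands as CTTTG followed by A or T and again by A or T, were in 3 of the 24 windows (12.5%, those of Fzd7, Wnt11 and Wnt5b) and in 14.8% of all windows. None of the 3 windows shown held them. These matches describe letters in short windows only.

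Levels of different genes were compared as TMM-scaled CPM per kilobase of annotated exon, averaged over the 6 libraries. Dkk3 was the highest member at 34.4 ± 6.34 (SD, n = 6), followed by the receptors Fzd1 at 30.8 ± 2.49 and Fzd5 at 26.3 ± 3.33, and by Sfrp1 at 23.2 ± 7.67. Dkk3 and Fzd1 differed by less than the SD of Dkk3 and Fzd5 and Sfrp1 by less than the SD of Sfrp1, while Fzd1 and Fzd5 differed by more than either SD. The highest ligand was Wnt6 at 14.3 ± 17.0, an average that rests on KO replicates 2 and 3. Wnt2b, made by stromal cells of the gut, followed at 8.65 ± 4.88. Rspo3 at 4.24 ± 2.12 was the highest R-spondin, and the lowest expressed member was Rspo2 at 0.327 ± 0.296. The same 10 genes were the highest when the longest transcript was used as the length.

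**Figure D1:**
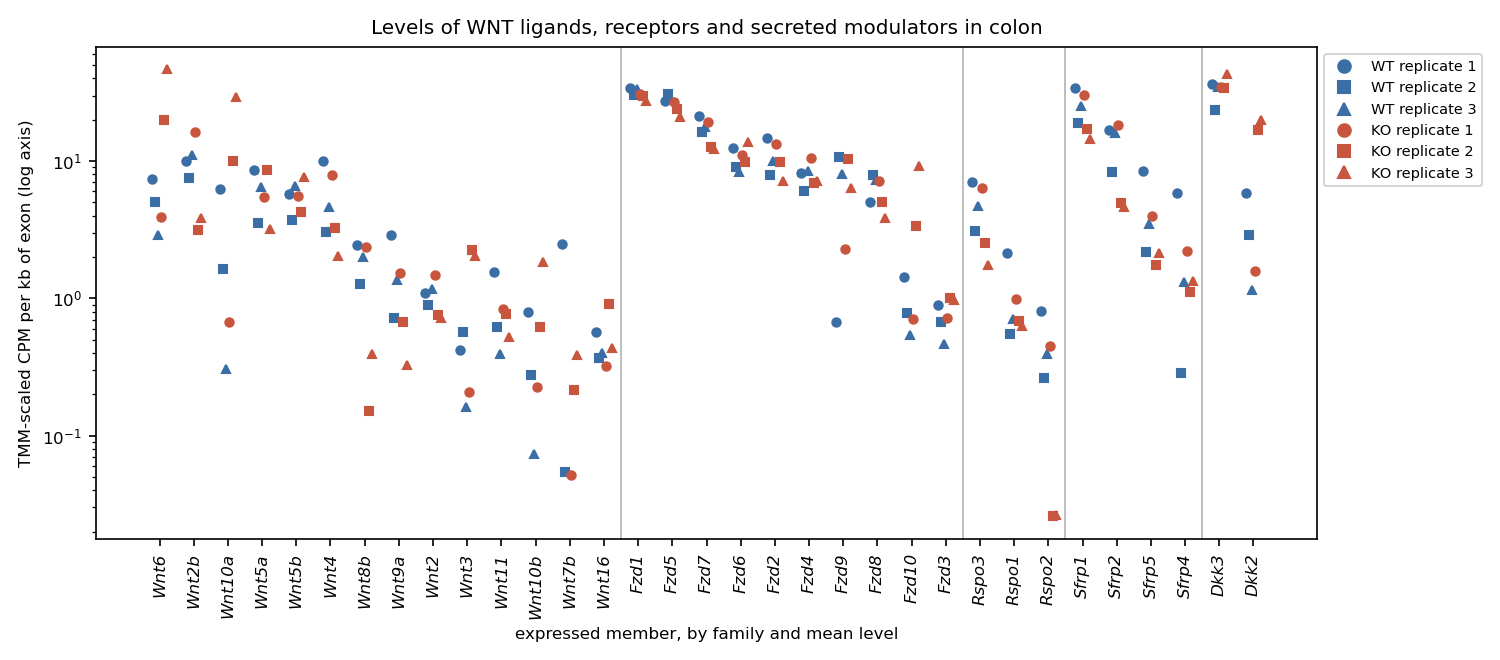
Level of each of the 33 expressed members in each colon library, as TMM-scaled CPM per kilobase of exon on a log axis, with families separated by grey lines and ordered by mean level (circles, squares and triangles are replicates 1, 2 and 3, blue WT and red KO, and the Wnt7b value of 0 in WT replicate 3 is not drawn). Fzd1 and Fzd5 lie close together over all libraries, while Wnt6, Wnt10a and Fzd10 reach their highest values in KO replicate 3.

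For KO against WT, edgeR's quasi-likelihood test with Benjamini-Hochberg adjustment over all genes called 0 of 32 tested members (smallest adjusted p = 0.829) and 0% of all tested genes. At an unadjusted p under 0.05 there were 2 members (6.25%), Wnt6 and Fzd10, against 5.06% of all genes. Without KO replicate 1 these were 13 of 33 members (39.4%) and 20.9% of all genes, still with 0 members called (smallest adjusted p = 0.0837, edgeR). KO replicate 1 was the only KO library with Y-linked reads. Every KO library in that fit thus had high Xist, while WT held libraries of both kinds. The part of sex in that change was not tested. DESeq2 also called 0 members (smallest adjusted p = 0.428) and 0.0655% of all genes with an adjusted p. At an unadjusted p under 0.05 it had 4 of 33 expressed members (12.1%) and 3.38% of all 30263 genes. The latter include genes under the count filter, so these 2 shares are not alike. With limma-voom, fitted with a quality weight for each library, 0 members were called (smallest adjusted p = 0.131). In that weighted fit 15 of 32 (46.9%) had an unadjusted p under 0.05, as had 24.1% of all genes. KO had the higher mean for 12 members (37.5%) and the lower for 20, where 49.0% of all genes were higher. The median log2 difference of the tested members was -0.14, beside -0.0045 for all tested genes. That median was 0.19 without WT replicate 1. The groups of 1 member (3.13%), Fzd5, did not overlap, against 9.58% of all genes.

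**Figure D2:**
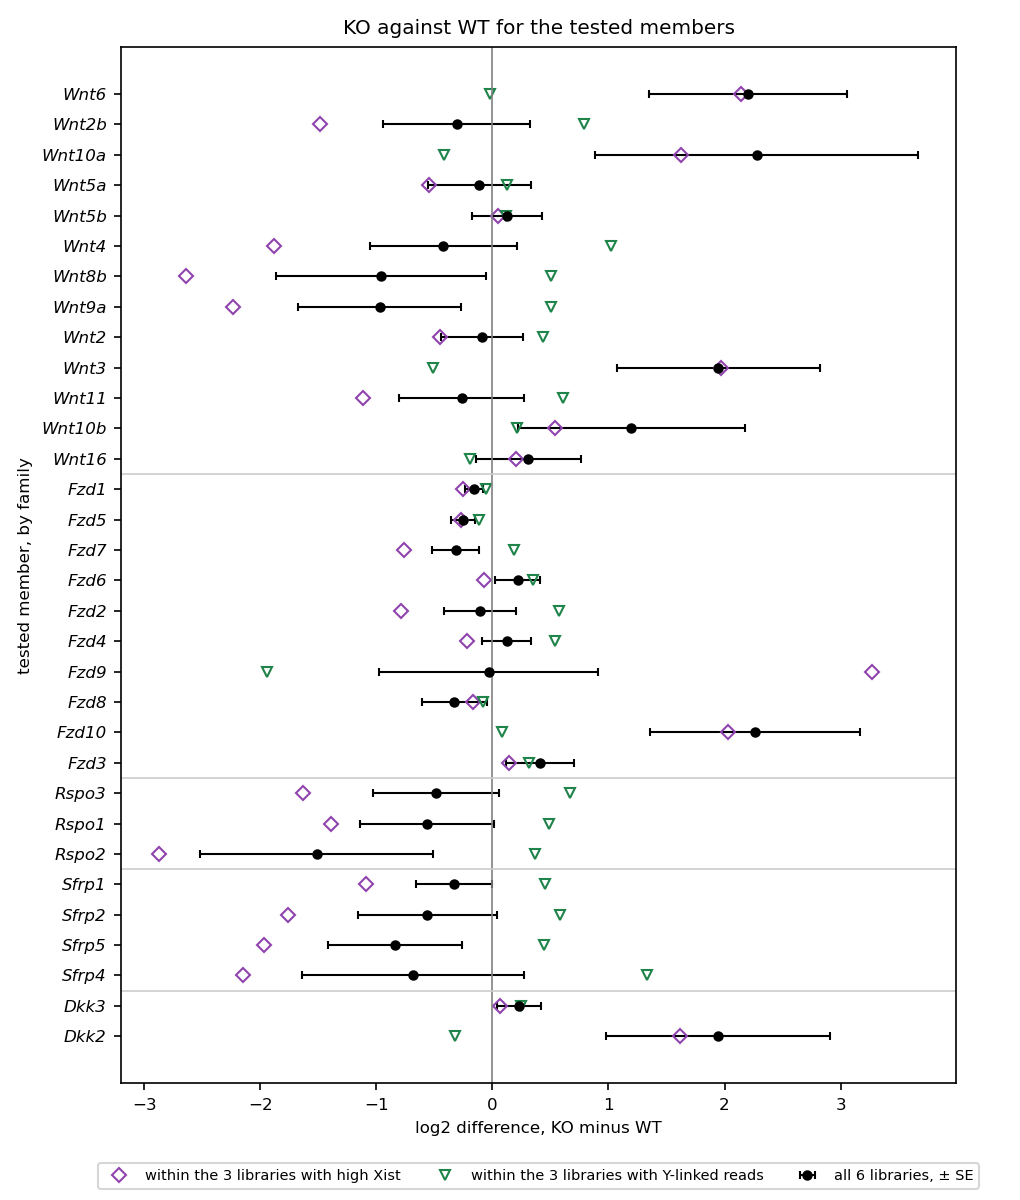
Fitted log2 difference of KO minus WT for the 32 tested members (black points, bars ± SE), with the difference of mean levels within the 3 libraries with high Xist (purple diamonds) and within the 3 with Y-linked reads (green triangles). For every R-spondin and secreted Frizzled-related protein the diamond is below 0 and the triangle above it.

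Spread between the KO libraries exceeded that between the WT libraries in 19 of 32 members, where 62.4% of all genes showed this. KO replicate 1 lay within the WT range for 26 members (81.3%), where 56.0% of all genes did. WT replicate 1 was the highest library for 14 members and KO replicate 3 for 8, while KO replicate 3 was also the lowest for 12 and WT replicate 3 for 9. Over all tested genes WT replicate 1 was the highest in 18.3% and KO replicate 3 in 22.6%, and the lowest was KO replicate 3 in 23.9% and WT replicate 3 in 13.8%. For 24 of 32 members the difference had opposite signs within the Xist-high and the Y-linked libraries. The share of all genes with opposite signs was not determined. WT replicate 1, the only WT library with high Xist, was also the one with squamous epithelium markers at 980 CPM. The part of such tissue in the Xist-high differences was not tested. An interaction of group and Xist status was also fitted, with 2 residual degrees of freedom. Each Xist set held a single library on 1 side, so this fit cannot test the change of sign. Its log2 values for the tested members ran from -5.67 (Fzd9) to 5.24 (Rspo2). The Xist-high libraries all stood on 1 side of the others for 8 members (25.0%), among them Wnt6, Wnt10a, Fzd10 and Dkk2, and for 16.0% of all genes. For those 4 genes the part of sex in the values was not tested beyond the fits given here.

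**Figure D3:**
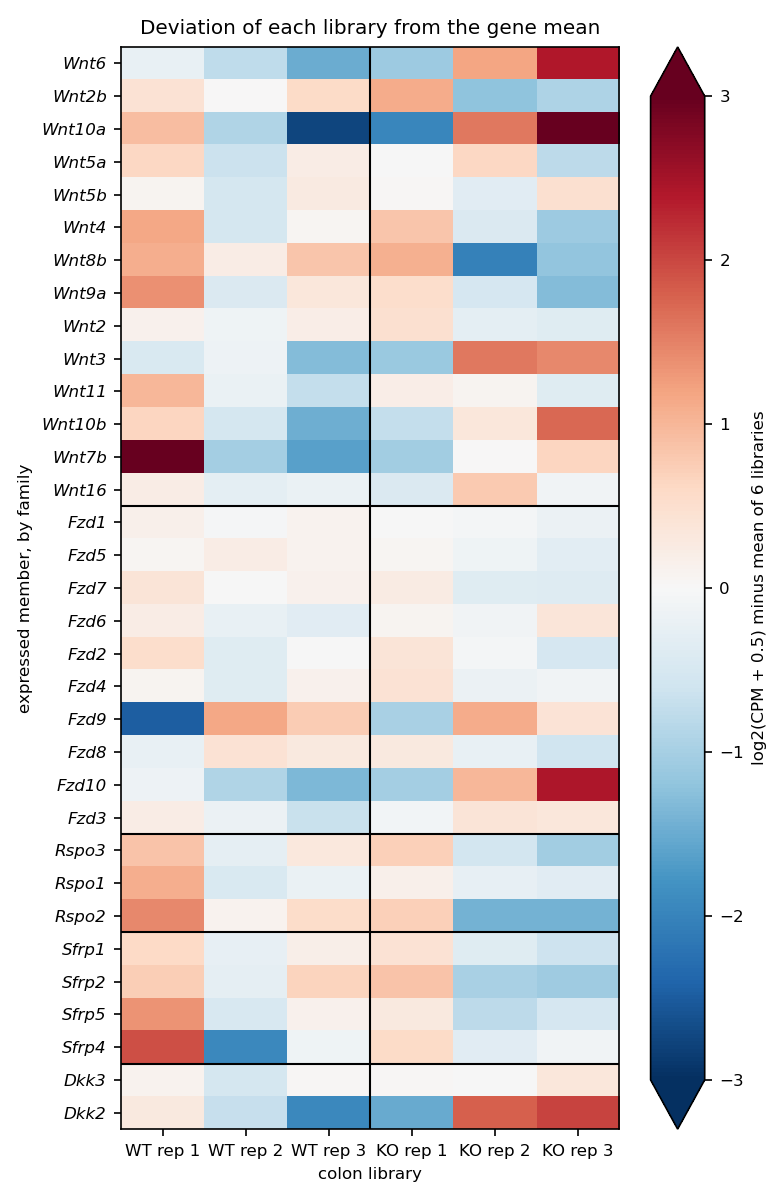
Deviation of each colon library from the mean of the 6 libraries for the 33 expressed members, as log2(CPM + 0.5), with red above and blue below the mean and colors saturating at 3. Wnt6, Wnt10a, Wnt3, Fzd10 and Dkk2 are red in KO replicates 2 and 3, and the R-spondin and Sfrp rows are blue there.

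Among the ligands, 16 were listed, 14 expressed and 13 tested, with 6 higher and 7 lower in KO and a median difference (log2) of -0.09. Wnt6 (ENSMUSG00000033227, GRCm38 chromosome 1, 74771892 to 74785322, plus strand), a canonical ligand made by epithelia, had 16.1, 11.0 and 6.38 CPM in the WT libraries and 8.55, 43.6 and 102 CPM in the KO libraries. KO replicates 2 and 3 stood above all WT libraries and KO replicate 1 between them, so the groups overlapped. The means were 11.1 ± 4.86 CPM in WT and 51.4 ± 47.2 CPM in KO (SD, n = 3), a log2 difference of 2.20 ± 0.86 (SE, edgeR adjusted p = 0.829). With KO replicate 3 left out it was 1.23, and with Xist status as a covariate 1.14. Over its alternatives the difference ran from 1.14 to 2.70, and the adjusted p in edgeR fits from 0.0881 (KO replicate 1 left out) to 1.000.

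Wnt10a (chromosome 1, 74791516 to 74804179, plus strand), also a canonical ligand, is the next protein-coding gene after Wnt6 on the same strand, and 6.19 kb separate them. Its values were 15.4, 4.01 and 0.750 CPM in WT and 1.66, 24.9 and 71.9 CPM in KO. As for Wnt6, KO replicate 3 was the highest library and KO replicate 2 the second, and WT replicate 3 was the lowest. The log2 difference was 2.28 ± 1.39 (SE, edgeR adjusted p = 0.829), and 0.98 without KO replicate 3, 0.81 with Xist status as a covariate and 3.80 without WT replicate 1.

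Wnt3 (chromosome 11, 103774150 to 103817957), which Paneth cells supply to stem cells in the small intestine, had 1.30, 1.74 and 0.500 CPM in WT and 0.638, 6.88 and 6.26 CPM in KO. The upper 2 KO libraries were at least 3 times any WT library, and the lowest KO library lay within the WT range. These values rest on 11, 13 and 4 counts in WT and on 5, 52 and 46 counts in KO. Wnt3 thus had few reads in WT and in the lowest KO library, which limits the precision of these ratios. Its log2 difference was 1.95 ± 0.88 (SE, edgeR adjusted p = 0.829), and 1.02 with Xist status as a covariate. Wnt9b, the divergently placed neighbour of Wnt3 at a distance of 24.3 kb, was not expressed and held at most 3 counts in any library. Wnt10b, with a log2 difference of 1.20 ± 0.98 (SE), was also highest in KO replicate 3, at 6.26 CPM.

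Wnt2b, a stromal ligand of the canonical branch, was laid out the other way. It had 42.2, 31.7 and 46.6 CPM in WT and 67.9, 13.2 and 16.2 CPM in KO, so that KO replicate 1 was the highest and KO replicates 2 and 3 the lowest of all libraries. The group difference of -0.31 ± 0.63 (SE, log2; edgeR adjusted p = 0.934) therefore averages values on both sides of WT, and it was -1.45 without KO replicate 1. Wnt9a had 9.70, 2.41 and 4.50 CPM in WT and 5.11, 2.25 and 1.09 CPM in KO (log2 difference -0.97 ± 0.70, SE; edgeR adjusted p = 0.836), with WT replicate 1 highest and KO replicate 3 lowest. Its difference was -1.73 if KO replicate 1 was left out and -0.28 if WT replicate 1 was. Wnt8b had 4.41 to 8.52 CPM in WT and 8.30, 0.529 and 1.36 CPM in KO, with KO replicates 2 and 3 below every WT library. Wnt4 had 42.2, 12.8 and 19.5 CPM in WT and 33.4, 13.6 and 8.58 CPM in KO, so that only KO replicate 3 was below the WT range. Wnt5a and Wnt5b, ligands that often act without beta-catenin, differed by -0.11 ± 0.44 and 0.12 ± 0.30 (SE, log2). The remaining tested ligands Wnt2, Wnt11 and Wnt16 had group means of 1.95 to 3.52 CPM, with log2 differences between -0.26 and 0.31.

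Wnt7b was expressed by the mean of 21.5 counts but not tested, because 103 of its counts came from WT replicate 1 and the other libraries held 2, 0, 2, 8 and 14. WT replicate 1 was also the library with the squamous epithelium markers at 980 CPM, and the part of such cells in the Wnt7b value was not tested. The ligands below the limit were Wnt7a and Wnt9b, with at most 24 counts in a library.

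The share of single ligands in the total ligand level differed between libraries. Summed over the 14 expressed ligands, the level was 42.4 ± 16.1 CPM per kb in WT and 67.1 ± 28.0 CPM per kb in KO (SD, n = 3). Wnt6 and Wnt10a together made up 22.5%, 22.7% and 8.55% of it in WT and 9.77%, 54.0% and 76.4% in KO. Wnt2b and Wnt4 made up 33.4%, 36.2% and 41.9% in WT and 51.6%, 11.5% and 5.96% in KO. In KO replicates 2 and 3 the first pair was thus the larger share, and in the other 4 libraries the second pair was. These shares are of 1 total, so a high value for one pair lowers the other.

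**Figure D4:**
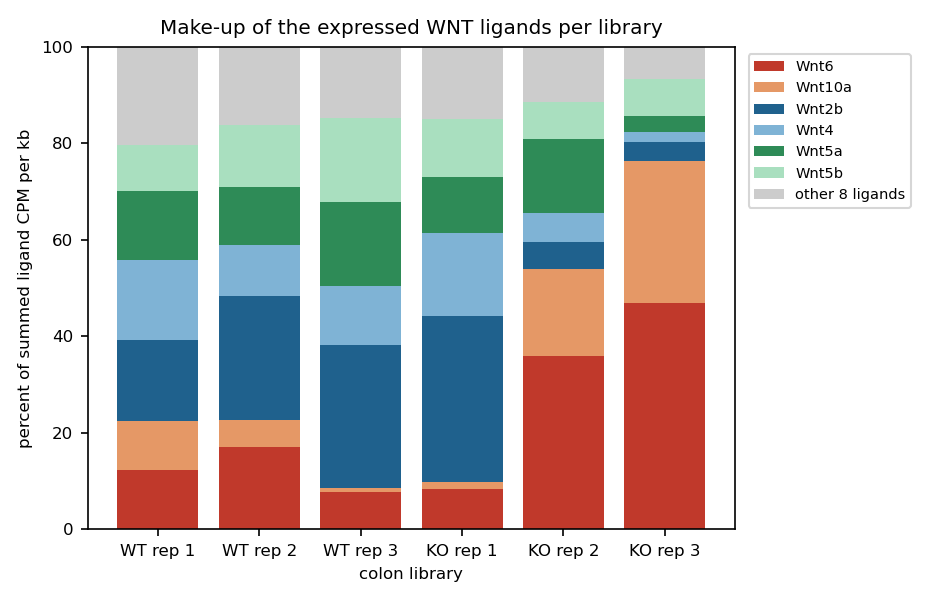
Percent of the summed CPM per kb of the 14 expressed WNT ligands that each of 6 ligands and the other 8 together made up in each colon library. Wnt6 and Wnt10a (red and orange) reach 54.0% and 76.4% in KO replicates 2 and 3.

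All 10 Frizzled receptors were expressed and tested, with 4 higher and 6 lower in KO and a median difference (log2) of -0.07. Their summed level was the steadiest of the 5 families, at 123 ± 2.93 CPM per kb in WT and 115 ± 7.20 CPM per kb in KO (SD, n = 3). Fzd5 (chromosome 1, 64730558 to 64737751, minus strand), the main canonical receptor of gut epithelium, had 188, 211 and 194 CPM in WT and 187, 166 and 146 CPM in KO. The groups did not overlap, but the lowest WT and the highest KO library were less than 1 CPM apart. The log2 difference was -0.25 ± 0.10 (SE, edgeR adjusted p = 0.829) and -0.16 without KO replicate 3.

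Fzd1 had 143, 127 and 140 CPM in WT and 128, 125 and 114 CPM in KO (log2 difference -0.16 ± 0.08, SE; edgeR adjusted p = 0.829), with an overlap of KO replicate 1 and WT replicate 2. Fzd7, a receptor of crypt stem cells, had 96.6, 73.2 and 80.5 CPM in WT and 87.6, 57.4 and 55.8 CPM in KO (log2 difference -0.32 ± 0.21, SE; edgeR adjusted p = 0.829). Its KO replicates 2 and 3 were below every WT library and its KO replicate 1 was above 2 of them. Left-out libraries moved Fzd7 between -0.56 (KO replicate 1) and -0.19 (WT replicate 1), and Fzd1 between -0.21 (WT replicate 2) and -0.10 (KO replicate 3).

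Fzd10, a receptor otherwise low in the adult gut, was at 4.61, 2.54 and 1.75 CPM in WT and at 2.30, 10.8 and 30.0 CPM in KO. KO replicates 2 and 3 were above all WT libraries, and KO replicate 1 was within their range. Its log2 difference was 2.26 ± 0.91 (SE, edgeR adjusted p = 0.829), 1.15 without KO replicate 3 and 1.22 with Xist status as a covariate.

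Fzd9 was the most uneven of the remaining receptors, at 1.54, 24.6 and 18.5 CPM in WT and 5.23, 23.8 and 14.6 CPM in KO. Its low libraries were replicate 1 of either group, and the group difference was -0.03 ± 0.95 (SE, log2; edgeR adjusted p = 0.996). Fzd9, like Wnt4, Wnt8b, Wnt10b, Sfrp4 and Wnt7b above or below, was picked for its values after they were seen. Fzd3 had 11.5, 8.56 and 6.00 CPM in WT and 9.19, 13.0 and 12.5 CPM in KO (log2 difference 0.41 ± 0.29, SE; edgeR adjusted p = 0.836), and its difference was 0.68 without WT replicate 1 and 0.22 without WT replicate 3. Fzd2, Fzd4, Fzd6 and Fzd8 had log2 differences between -0.33 and 0.22.

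Of the 4 R-spondins, 3 were expressed, all with a lower mean in KO. Their median log2 difference was -0.56, and 0 were called. Rspo3, the R-spondin on which colonic stem cells chiefly depend, had 21.6, 9.63 and 14.6 CPM in WT and 19.5, 7.80 and 5.45 CPM in KO. KO replicates 2 and 3 were below every WT library and KO replicate 1 was near the top (log2 difference -0.48 ± 0.54, SE; edgeR adjusted p = 0.879). Leaving out KO replicate 1 gave -1.21, and leaving out WT replicate 1 gave -0.14.

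Rspo2 met the limit of 10 mean counts only through libraries other than KO replicates 2 and 3. It had 35, 10 and 16 counts in WT and 18, 1 and 1 counts in KO. A single read was behind each of the last 2 values (log2 difference -1.51 ± 1.00, SE; edgeR adjusted p = 0.829), and the fit lacking KO replicate 1 gave -4.07 and that lacking WT replicate 1 -0.93. Rspo1 had 4.14, 1.07 and 1.38 CPM in WT and 1.91, 1.32 and 1.23 CPM in KO. WT replicate 1 alone set its lower mean in KO (log2 difference -0.56 ± 0.58, SE; edgeR adjusted p = 0.872), which became 0.29 without that library. Rspo4 was not expressed, with 20 counts in KO replicate 3 and at most 10 elsewhere.

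All 4 secreted Frizzled-related proteins were expressed, each with a lower mean in KO. The median of their log2 differences was -0.62, and 0 were called. Sfrp1, the most abundant, had 148, 82.4 and 109 CPM in WT and 132, 75.1 and 63.3 CPM in KO (log2 difference -0.33 ± 0.33, SE; edgeR adjusted p = 0.870). Sfrp2, made by fibroblasts, had 36.2, 17.8 and 34.5 CPM in WT and 39.3, 10.7 and 9.94 CPM in KO (log2 difference -0.56 ± 0.60, SE; edgeR adjusted p = 0.874). With 1 library left out, Sfrp1 ran from -0.71 (KO replicate 1) to -0.081 (WT replicate 1) and Sfrp2 from -1.52 (KO replicate 1) to -0.23 (KO replicate 3). For Sfrp1 and Sfrp2 KO replicates 2 and 3 were the lowest 2 libraries, while KO replicate 1 was the highest for Sfrp2 and second for Sfrp1. Sfrp5 had 16.0, 4.15 and 6.63 CPM in WT and 7.53, 3.31 and 4.08 CPM in KO (log2 difference -0.84 ± 0.58, SE; edgeR adjusted p = 0.832), with -0.10 if WT replicate 1, its highest library, was left out and -1.27 if KO replicate 1 was. Sfrp4 ranged from 1.20 CPM in WT replicate 2 to 24.4 CPM in WT replicate 1.

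Stromal and muscle markers are given beside the R-spondins and secreted Frizzled-related proteins. Summed over the 3 expressed R-spondins, the level was 9.95, 3.93 and 5.84 CPM per kb in WT and 7.76, 3.23 and 2.42 CPM per kb in KO. For the 4 Sfrp genes it was 64.8, 29.6 and 45.9 CPM per kb in WT and 54.5, 25.0 and 22.6 CPM per kb in KO. The 12 smooth muscle markers summed to 3233, 2190 and 2574 CPM in WT and to 2709, 2085 and 1347 CPM in KO. The 16 fibroblast markers, which include Pdgfra and Col1a1, summed to 2277, 1556 and 2103 CPM in WT and to 2292, 1704 and 1388 CPM in KO. In all 4 sums WT replicate 1 or KO replicate 1 was the highest library and KO replicate 3 the lowest. How much of the R-spondin and Sfrp values comes with the amount of stroma or muscle in a piece of colon was not tested, and in bulk tissue fewer cells of a type and less RNA per cell cannot be told apart.

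**Figure D5:**
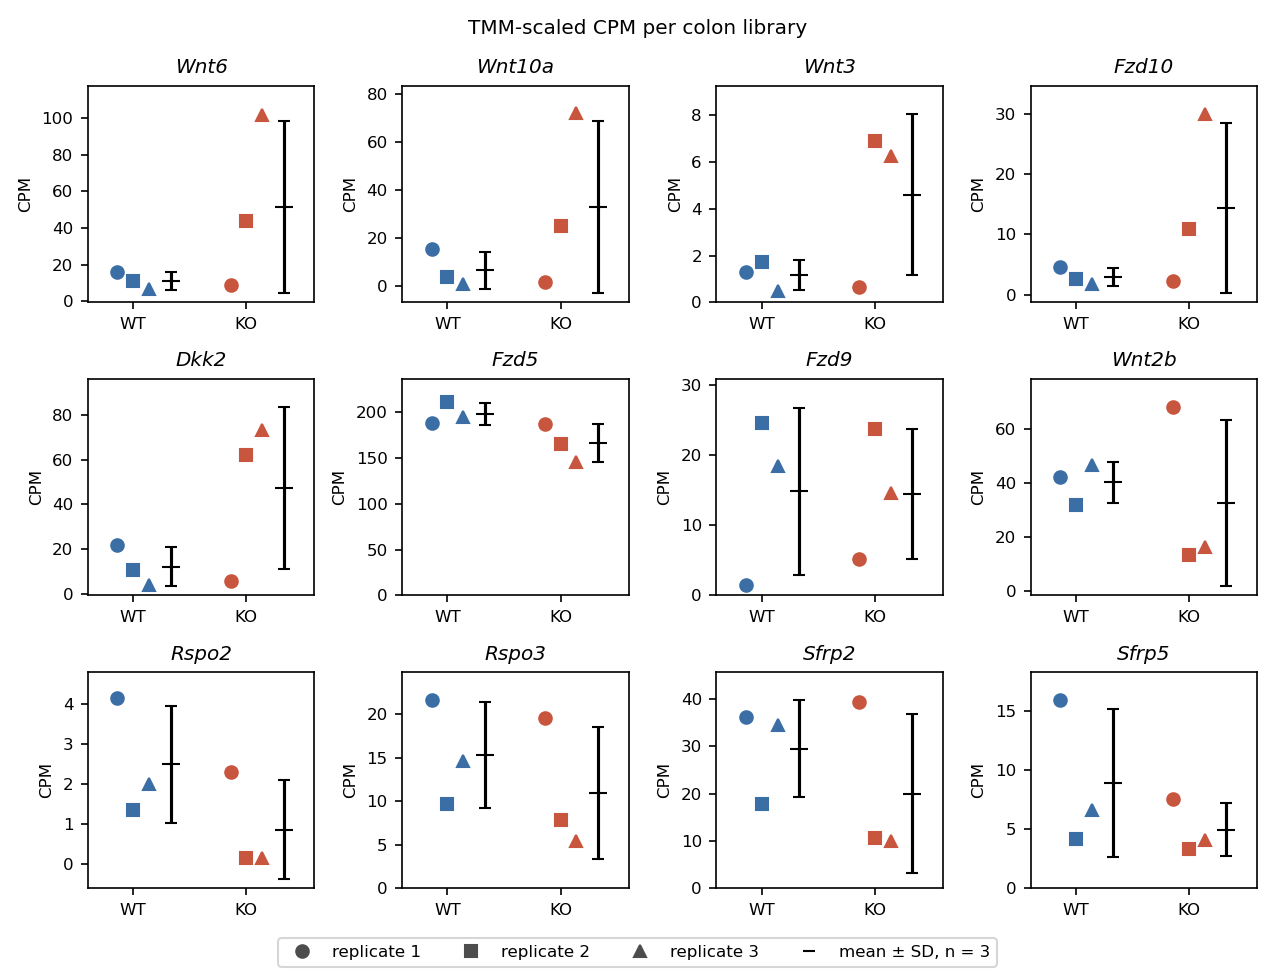
TMM-scaled CPM in each colon library for 12 members (circles, squares and triangles are replicates 1, 2 and 3, blue WT and red KO, bars mean ± SD, n = 3). In the first 5 panels KO replicates 2 and 3 lie above all other libraries, and for Wnt2b, Rspo2, Rspo3, Sfrp2 and Sfrp5 they lie at the bottom.

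Of the 4 Dickkopf genes the tables listed Dkk2, Dkk3 and Dkk4, and the first 2 were expressed. Dkk2 (ENSMUSG00000028031, chromosome 3, 132085292 to 132180304, plus strand), which binds LRP5 and LRP6, had 21.8, 10.7 and 4.25 CPM in WT and 5.87, 62.2 and 73.4 CPM in KO. KO replicates 2 and 3 exceeded all WT libraries, and KO replicate 1 was the second lowest of the 6. The means were 12.2 ± 8.86 CPM in WT and 47.1 ± 36.2 CPM in KO (SD, n = 3), a log2 difference of 1.94 ± 0.96 (SE, edgeR adjusted p = 0.829), and 0.74 with Xist status as a covariate. Dkk3, a divergent member that is not a typical WNT inhibitor, had 123, 78.9 and 117 CPM in WT and 117, 113 and 145 CPM in KO. All but WT replicate 2 and KO replicate 3 lay between 113 and 123 CPM (log2 difference 0.23 ± 0.19, SE; edgeR adjusted p = 0.850), and without WT replicate 2 the difference was 0.058. Dkk4 had 1 count, in KO replicate 2.

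Other parts of the pathway were read from lists chosen with earlier results of these data known, and no gene of any list passed the test over all genes (smallest adjusted p = 0.829, edgeR). Of 7 WNT secretion genes 5 were higher in KO, and the median log2 difference was 0.02. Porcn, the enzyme that adds the lipid to WNT ligands, had 26.4, 14.6 and 16.0 CPM in WT and 16.9, 8.99 and 9.26 CPM in KO (log2 difference -0.70 ± 0.35, SE). Tmed5 and Tmed2, cargo receptors of the secretory route, differed by 0.21 ± 0.14 and 0.16 ± 0.14 (SE, log2). Of 15 co-receptor genes 5 were higher and 10 lower, with a median of -0.03, and Kremen1, a partner of Dickkopf proteins, and Ptk7 differed by -0.30 ± 0.13 and 0.30 ± 0.18 (SE, log2).

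Of the 13 other secreted modulators tested, 6 were higher and 7 lower in KO, and the median log2 difference was -0.03. Wif1, which binds WNT ligands, had 52.5, 42.0 and 9.88 CPM in WT and 21.2, 138 and 188 CPM in KO, so that KO replicates 2 and 3 again lay above all WT libraries and KO replicate 1 within them. Notum, the enzyme that removes the lipid from WNT ligands, had 26.1, 25.3 and 5.38 CPM in WT and 8.17, 84.0 and 110 CPM in KO. Apcdd1, a membrane inhibitor, had 53.5, 36.5 and 17.8 CPM in WT and 23.7, 97.7 and 165 CPM in KO. Their log2 differences were 1.73 ± 0.88, 1.83 ± 0.97 and 1.41 ± 0.72 (SE), and that of Tpbg was 0.59 ± 0.26. For Wif1, Notum and Apcdd1 the third highest library was WT replicate 1, which also had high Xist.

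Known feedback targets of beta-catenin, a list that shares 8 genes with the others, had 17 of 18 genes higher in KO. The median of their log2 differences was 1.14, beside -0.0045 for all tested genes, and 0 passed. The 18 genes summed to 1266, 978 and 808 CPM in WT and to 897, 2000 and 2719 CPM in KO. The sum of KO replicate 1 thus lay within the WT range. The libraries with high Xist (WT replicate 1 and KO replicates 2 and 3) all had higher sums than those with Y-linked reads. The part of sex in these sums was not tested. The TCF family members Lef1 and Tcf7, which carry the signal on DNA and are targets themselves, differed by 2.28 ± 0.83 and 1.05 ± 0.41 (SE, log2). Lef1 had 7.45, 6.29 and 2.50 CPM in WT and 4.85, 27.2 and 47.1 CPM in KO. Axin2, the scaffold that is the most general target, had 151, 125 and 109 CPM in WT and 111, 205 and 271 CPM in KO. In Lgr5, the R-spondin receptor of crypt stem cells, the layout was 34.9, 16.0 and 11.8 CPM in WT and 26.7, 72.6 and 102 CPM in KO. Nkd1 and Sp5 likewise had 217 and 285 CPM and 42.1 and 76.9 CPM in KO replicates 2 and 3, against at most 112 and 10.3 CPM in WT. For each of these genes KO replicates 2 and 3 were the highest 2 libraries, as they were for Wnt6, Wnt10a, Wnt3, Fzd10 and Dkk2.

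The list of 8 receptor turnover genes was split evenly, with a median of 0.01. Znrf3 and Rnf43, enzymes that remove Frizzled receptors and are opposed by R-spondins, differed by 0.70 ± 0.34 and 0.51 ± 0.28, and Dvl3, which relays the receptor signal, by -0.25 ± 0.09 (SE, log2). Among 17 intracellular transducers 10 were higher and 7 lower, with a median of 0.00079, and Axin1, the constitutive scaffold, differed by -0.21 ± 0.06 (SE, log2). Of 15 genes of the planar polarity branch 6 were higher and 9 lower, with a median of -0.09, and Vangl1, Vangl2 and Daam1 differed by 0.21 ± 0.11, 0.92 ± 0.48 and -0.09 ± 0.07 (SE, log2).

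In the CD8+ T cell tables, which hold 357 genes, the listed members were Fzd3 and Fzd6. Fzd3 had 52, 262 and 42 counts in the WT and 20, 4 and 14 in the KO libraries. Fzd6 had 41, 204 and 33 counts in WT and 20, 10 and 12 in KO. The sums over these tables are not depths, so the counts are given without a comparison.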

How the data were processed

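RNA sequencing read counts per Ensembl gene were used as the authors deposited them, as whole numbers with no normalisation, per the file headers. The submitters' processing notes name STAR, TopHat2, RSEM, HTSeq and DESeq2 with mm10 and GRCm38 but give no roles. Filters, duplicate removal and strand use are not given in the sources used here, so a gene and its antisense partner cannot be told apart. Exons of 7 members overlap an opposite-strand gene in GENCODE vM21, and each such gene that the tables list held at most 28 counts over 6 libraries. Wnt4 shared 3.85% of its 50-base stretches with other genes and every other member at most 0.255%. The highest count per exon base was 0.919 to 0.973 in the libraries, which may compress folds of abundant genes, and no member averaged more than 0.268. In a single library the highest member value was 0.342, for Wnt6.

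The 17195 genes that passed filterByExpr entered a robust quasi-likelihood fit in edgeR 4.0.16 (R 4.3.3) with TMM factors, and p-values were adjusted by Benjamini-Hochberg with a threshold of 0.05. Fold changes are log2 KO minus WT with SE. Groups came from the sample titles. The members, lists and tests were chosen with earlier results of these data known. Values in each library are given for the 3 highest members of each family, the 12 with the smallest p and those whose groups do not overlap, and the 3 genes with the smallest p of each pathway list are named with the feedback targets Axin2, Lgr5, Nkd1, Sp5, Notum and Wif1. Endothelium markers summed to 414 to 634 CPM in WT and 339 to 588 CPM in KO, and immune markers to 344 to 575 and 385 to 647 CPM. Marker lists gave summed levels and the number of tested genes higher in KO, and for mesothelium and fat also the median difference. Differences within the Xist sets use mean CPM + 0.5. On simulated data with 200 changed genes among 16945, the recovery by edgeR was 41.2% at 2-fold and 78.1% at 4-fold, with 9 false calls. The simulated libraries were drawn independently, without the split of KO replicate 1 from KO replicates 2 and 3. The recovery for genes with that layout was not tested. Alternatives were DESeq2 size factors, total counts, no filter, a mean of 50 counts, the replicate block, each replicate left out, Xist status as a covariate, DESeq2 1.42.0 and limma-voom 3.58.1. The limma-voom fit gave each library an estimated quality weight, so libraries did not count equally in it. The interaction with Xist status and the differences within the Xist sets were added after the results were seen. No library repeated another: within groups, chi-square per degree of freedom between libraries was 5.58 or more.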

Additional observations from a re-analysis of the deposited data

Results flagged for a closer look

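Counts of 2 members were present in data that the colon comparison does not use, the tables of CD8+ T cells sorted from PyMT tumors, above the 3 counts that a count of 0 allows. Fzd3 summed to 394 counts over the 6 CD8 libraries and Fzd6 to 320.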

How the results depend on the processing

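No member was called under any of the 14 alternatives, and over all genes DESeq2 called 14 and every other alternative 0. Of 248 recomputed log2 differences of the 18 members given by library, 245 kept their direction. The alternatives reused the same counts, and the 18 include the 12 members with the smallest p, so this is no independent support. Over all tested members 12 were higher in KO and 20 lower in the main fit. Without WT replicate 1 they were 18 and 14. With 1 replicate left out, the log2 difference of Rspo1 ran from -0.88 to 0.29 (positive without WT replicate 1) and that of Wnt2b from -1.45 to 0.066 (positive without KO replicate 2, and at 0.02 without KO replicate 3). The cause was not tested. Leaving out each replicate moved the median over the tested members between -0.36 and 0.19, with 0 members and 0 genes called each time. With limma-voom and library quality weights, 15 of 32 members (46.9%) and 24.1% of all genes had an unadjusted p under 0.05. A replicate block gave 0 called members and a median of -0.12. Same-numbered libraries had correlations of -0.03, 0.26 and -0.26, without a common sign. These values do not settle if the numbers mark pairs. Depth limits the precision for Rspo2, Rspo1, Wnt10b, Wnt16 and Wnt2, which averaged 13.5 to 18.0 counts. The same holds for Wnt3, which had 4 to 13 counts in the WT libraries and 5 in KO replicate 1.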
